A study of Mus musculus with 18 samples.

Results

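Heart ventricles of mouse embryos labelled Irx4KO were compared with ventricles labelled Irx3het_Irx4het, the double heterozygotes, at stage E14.5, in midgestation. The comparison was chosen by genotype label and holds 6 of the 18 libraries of the series, replicates 2, 3 and 4 of each group. The series holds polyA-selected RNA sequencing of ventricles of 5 genotypes: WT, Irx3KO, Irx4KO, Irx3het_Irx4het and Irx3KO_Irx4KO, called the double knockout below. The double heterozygote carries 1 mutant copy of each gene, so the comparison removes the second intact copy of Irx4 and at the same time restores the second intact copy of Irx3. A difference between the 2 groups cannot be assigned to one gene or the other from this comparison alone. The question asked of these genotypes, from the title of the series, is what Irx3 and Irx4 do in common while the ventricular wall becomes compact. The labels do not name the mutant alleles, the part of each gene removed, the strain or whether littermates were used. Nor do they tie each library to an embryo of its own, so a p-value here reflects how much libraries of a group vary, and that variation may be technical. Of 28563 genes with a transcript in the tables, 16607 passed the filter on low counts and were tested.

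Irx3 and Irx4 encode Iroquois homeobox transcription factors. In the embryonic heart Irx4 marks ventricular myocardium, and Irx3 marks the trabeculae and the ventricular conduction system that forms from them. Gap junctions couple neighbouring heart muscle cells electrically, with connexin 43 (Gja1) as the main connexin of working ventricular muscle and connexin 40 (Gja5) as the connexin of trabeculae and the conduction system. Iroquois factors are known to act on connexin genes in the heart.

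Total estimated counts ran from 26721576 to 41725666 in the double heterozygotes and from 36802673 to 42500376 in Irx4KO. Both groups belonged to the same one of 2 library sets that differ in how counts follow transcript length, together with Irx3KO and double knockout replicates 2, 3 and 4. WT and double knockout replicates 5, 7 and 10 formed the other set. No label gives these sets. They were split by the sign of the rank correlation between transcript length and a library's deviation from the mean of all libraries. This correlation was 0.06, 0.331 and 0.154 in double knockouts 2, 3 and 4 and 0.448, 0.461 and 0.414 in Irx3KO, so these groups differ in it within their set. The summed level of Y-linked genes was 1.42 CPM (counts divided by the library total and put on a shared scale) in double heterozygote 2 and at least 145.52 CPM in the other 5 libraries compared, which leaves the sexes of the embryos unequal between the groups by this measure. The ventricular light chain Myl2 was at 13700 to 14700 TPM (a share of the library, scaled for transcript length) in the double heterozygotes and 12900 to 13900 TPM in Irx4KO. The liver gene Alb was at no more than 0.106 TPM, the lung gene Sftpc at no more than 0.0672 TPM and the skeletal muscle factor Myod1 at no more than 0.0236 TPM in these libraries.

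Irx3 rose and Gja1 fell, and no other gene passed the threshold of an adjusted p of 0.05 (edgeR quasi-likelihood test, Benjamini-Hochberg adjustment over all genes tested). The 2 genes are 0.0120% of those tested, 0.00602% in each direction. Without adjustment 931 genes (5.61%) had a p below 0.05, 543 higher in Irx4KO (3.27%) and 388 lower (2.34%). The 3 and 3 libraries did not overlap for 2345 genes (14.1%), 1205 higher (7.26%) and 1140 lower (6.86%). The median log2 fold change over all genes was 0.0022. The number of calls moved with the tool and the samples in the fit, from 0 by limma-voom to 22 by DESeq2, so many values below are given for genes that did not pass.

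Irx3 was at 12.8, 13.2 and 13.3 CPM in double heterozygotes 2, 3 and 4, and at 22.2, 26.2 and 26.4 CPM in Irx4KO 2, 3 and 4. All 3 Irx4KO libraries were above all double heterozygotes, and the level was 1.90-fold higher (log2 fold change 0.93 ± 0.12 SE, 95% interval 0.67 to 1.18, adjusted p = 0.0098). Irx3 thus followed the labels, from 2.83 ± 0.269 CPM in Irx3KO (SD, n = 3) through 13.1 ± 0.257 in the double heterozygotes to 24.9 ± 2.39 in Irx4KO. The residual count in Irx3KO came almost only from transcript Irx3-202, which held at least 92.35% of it in each library. The call of Irx3 was lost by limma-voom (adjusted p = 0.38), without double heterozygote 3 (0.054), without Irx4KO 3 (0.052) and without Irx4KO 4 (0.10). Its log2 fold change lay between 0.88 and 1.00 in all 18 alternatives, with adjusted p from 3.1e-09 to 0.38.

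Irx4 RNA was not lower in the libraries labelled Irx4KO. Irx4 was at 191, 189 and 176 CPM in the double heterozygotes and at 219, 216 and 239 CPM in Irx4KO, with no overlap and a log2 fold change of 0.28 ± 0.14 that did not pass (adjusted p = 0.90, 0.18 to 1 over the alternatives). Transcript Irx4-202 held 88.11% to 89.86% of the Irx4 counts in the double heterozygotes and 88.35% to 91.77% in Irx4KO. Irx4 RNA was higher in double knockout replicates 2, 3 and 4 (229 ± 8.04 CPM) than in Irx3KO (145 ± 11.6 CPM, 0.665, adjusted p = 0.045). In the other library set it was at 253 ± 32.6 CPM in the double knockout and 95.6 ± 26 CPM in WT (1.405, adjusted p = 1e-04). Since the removed part of Irx4 is unknown, the Irx4 count is no check of the label, and Irx4KO below means the library so labelled. Of the other family members, Irx2, which lies beside Irx4 on chromosome 13, was at 26.2, 26.1 and 26.8 CPM against 20, 21.7 and 13.7 CPM (-0.51 ± 0.16, adjusted p = 0.57). Irx1, on the other side of Irx2, was at -0.18, Irx5 at 0.01 and Irx6 at -0.50, and none of these passed.

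Gja1, on chromosome 10, was at 511, 499 and 477 CPM in the double heterozygotes and at 312, 329 and 326 CPM in Irx4KO. The groups did not overlap, and the level fell to 0.65 of that of the double heterozygotes (log2 fold change -0.62 ± 0.09 SE, 95% interval -0.80 to -0.44, adjusted p = 0.011). Per transcript length it was at a mean of 239 TPM and 151 TPM. No other connexin or disc gene passed. On the same scale the connexin 45 gene Gjc1 was at 80.3 TPM and 79.7 TPM, and Gja5 at 94.7 TPM and 96.0 TPM. The call of Gja1 was lost by limma-voom (adjusted p = 0.074), with genotype as the only term of the fit (0.055), without double heterozygote 3 (0.054) and without Irx4KO 2 (0.13), 3 (0.052) or 4 (0.10). Its log2 fold change stayed between -0.65 and -0.60 over the 18 alternatives, with adjusted p from 1.1e-08 to 0.13.

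Libraries of the same set that took no part in the comparison were read for Gja1 as well. It was at 505, 520 and 583 CPM in Irx3KO, which keeps Irx4, and at 304, 343 and 327 CPM in double knockout replicates 2, 3 and 4. The double knockout minus Irx3KO difference was -0.72 (adjusted p = 0.0015) and shares no library with the -0.62 of Irx4KO minus double heterozygote. The difference between these 2 differences was 0.10 ± 0.12 (95% interval -0.15 to 0.36). By label the 2 comparisons remove unlike numbers of intact Irx4 copies, both in the double knockout and only the second in Irx4KO. Gja1 differed by 0.01 between double knockout and Irx4KO (95% interval -0.17 to 0.19, adjusted p = 1) and by 0.11 between Irx3KO and double heterozygote (95% interval -0.07 to 0.29). The first of these 2 comparisons uses the Irx4KO libraries again and the second the double heterozygotes.

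**Figure D1:**
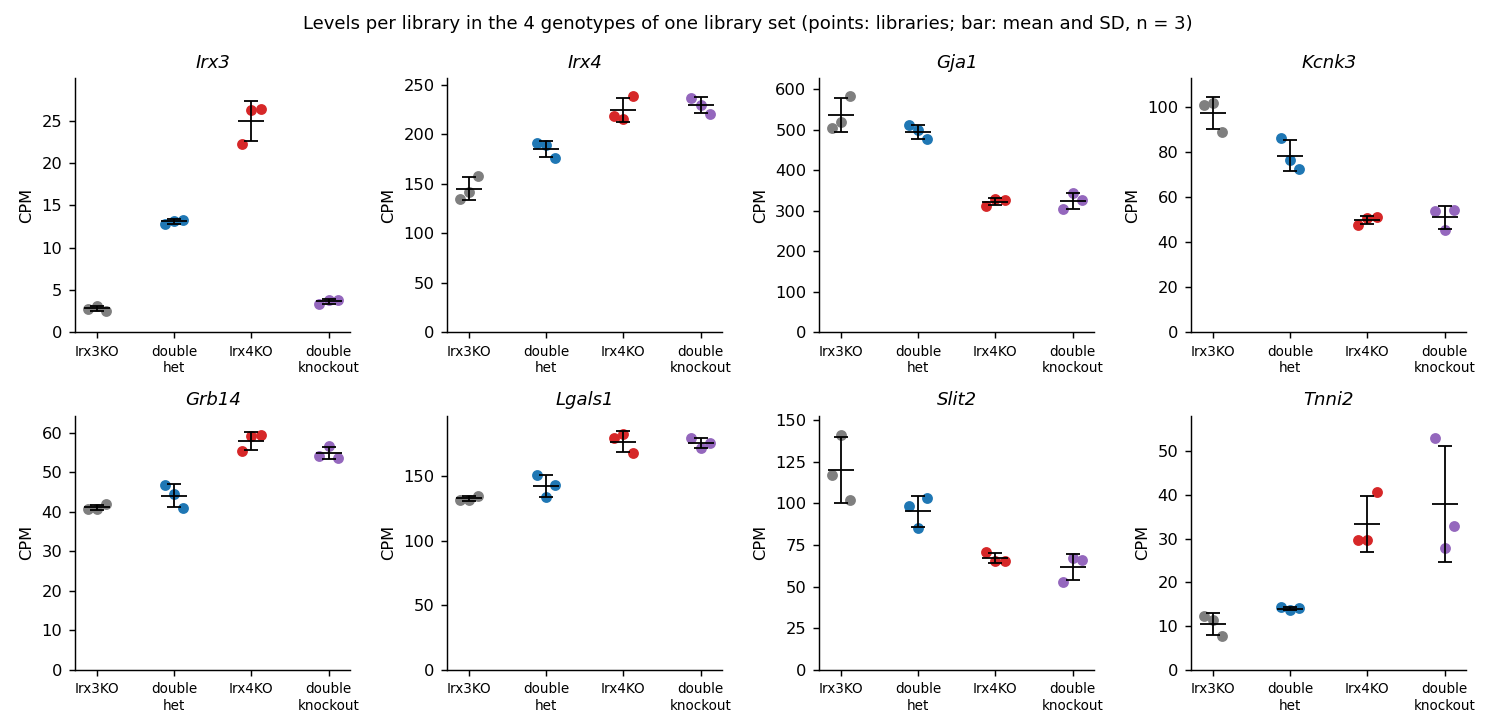
CPM of 8 genes in each library (points) of the 4 genotypes in one library set, with mean and SD (bars, n = 3) and axes that start at 0. Irx3 follows the number of intact Irx3 copies, while Gja1, Kcnk3 and Slit2 are lower, and Irx4, Grb14, Lgals1 and Tnni2 higher, in all Irx4KO and double knockout libraries than in all double heterozygotes.

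The 250 bases before the RefSeq start of Gja1 are shown because it is the 1 gene beyond Irx3 that passed (GRCm38.p6, chr10:56377050-56377299, plus strand). Capitals mark a match to the AP-1 motif TGANTCA that begins 19 bases before the start.
Gja1: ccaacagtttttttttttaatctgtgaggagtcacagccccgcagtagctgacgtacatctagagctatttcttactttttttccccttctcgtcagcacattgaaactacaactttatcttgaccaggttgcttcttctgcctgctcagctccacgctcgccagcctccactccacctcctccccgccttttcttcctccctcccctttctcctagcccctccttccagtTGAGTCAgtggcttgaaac
The Iroquois motif ACANNTGT, searched on both strands, was not in this window. Counted by gene, with a match in any promoter entry, it was in 0 of the 9 genes of the naming rule with an entry, in 1 of 43 genes called between double knockout and Irx3KO (2.33%) and in 7.2% of 27025 genes. TGANTCA was in 1 of the same 9 genes, in 5 of 43 (11.6%) and in 7.82% of all genes. The T-box motif AGGTGTGA was in 0 of the 9, in 0 of 43 and in 1.3% of all genes. Counted by promoter entry, the shares over all 32851 entries were 6.31% for the Iroquois motif and 6.75% for TGANTCA. A match or its absence describes these letters only.

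By the naming rule, the genes next in order of p after Irx3 among those higher in Irx4KO were an insulin receptor adaptor, a galectin and 3 membrane proteins, and none of these 5 passed. Grb14, the adaptor, was at 46.7, 44.5 and 41.0 CPM in the double heterozygotes and at 55.4, 59.2 and 59.4 CPM in Irx4KO (0.39 ± 0.07, adjusted p = 0.068, 3.6e-05 to 0.34 over the alternatives). Lgals1, which encodes galectin-1, was at 151, 134 and 143 CPM and at 180, 183 and 168 CPM (0.31 ± 0.06, adjusted p = 0.20). Elovl7, a fatty acid elongase on chromosome 13, was at 5.17, 7.77 and 4.08 CPM and at 10.4, 17.0 and 10.6 CPM (1.15 ± 0.24, adjusted p = 0.22, 0.0023 to 0.83 over the alternatives), and it passed by DESeq2 and with the replicate number as a block. In each of these genes all 3 Irx4KO libraries were above all 3 double heterozygotes, which the naming rule required. The protocadherin Pcdhac2, whose last exons are shared with other genes of its cluster so that its count is uncertain, was at 1.40 ± 0.132 CPM and 2.99 ± 0.758 CPM (adjusted p = 0.32). Plppr5, a lipid phosphatase-related membrane protein, was at 8.40 ± 0.588 CPM and 14 ± 1.08 CPM (adjusted p = 0.47).

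Among those lower in Irx4KO, the rule named 5 after Gja1, the first a potassium channel, and none of them passed. Kcnk3, the background potassium channel TASK-1, was at 86.2, 76.5 and 72.7 CPM in the double heterozygotes and at 47.7, 50.8 and 51.1 CPM in Irx4KO (-0.65 ± 0.12, adjusted p = 0.11, 0.00024 to 0.59 over the alternatives). The nuclear pore protein Nup210 was at 54.5, 64.2 and 55.7 CPM and at 42.8, 45.4 and 46.2 CPM (-0.38 ± 0.07, adjusted p = 0.11). The P/Q-type calcium channel Cacna1a was at 11.9, 12.1 and 12 CPM and at 9.18, 9.43 and 8.84 CPM (-0.39 ± 0.08, adjusted p = 0.22). Again the groups did not overlap in CPM, as the rule required. In TPM, however, the groups overlapped for Nup210 (17.7, 19.5 and 21.7 against 16.8, 17.9 and 16.1) and for Cacna1a (10.6, 12.4 and 12.1 against 9.34, 11.2 and 11.1). With counts rebuilt from TPM the log2 fold changes were -0.17 for Nup210 (adjusted p = 0.92, 0.00032 to 0.92 over the alternatives) and -0.12 for Cacna1a (adjusted p = 1, 0.015 to 1). Aldh5a1, an enzyme in the breakdown pathway of the transmitter GABA, was at 105 ± 2.44 CPM and 87.3 ± 3.96 CPM (-0.27, adjusted p = 0.25). Klhl18, a ubiquitin ligase adaptor, was at 17.6 ± 3.75 CPM and 11.7 ± 0.29 CPM (-0.58, adjusted p = 0.40).

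The same genes had been tested between double knockout and Irx3KO, with no library in common. There Grb14 (0.42, adjusted p = 0.008), Lgals1 (0.41, 0.0077), Elovl7 (1.31, 0.021) and Pcdhac2 (1.88, 0.0024) rose. Kcnk3 (-0.93, 0.0025), Nup210 (-0.45, 0.0078) and Cacna1a (-0.51, 0.008) fell. Plppr5 was at 0.75 (adjusted p = 0.087). Aldh5a1 was at -0.13 and Klhl18 at -0.05, and neither passed. Double knockout against WT, in the other library set, differs in Irx3 as well. In it Grb14 (0.29, adjusted p = 0.029), Pcdhac2 (1.73, 0.0017), Plppr5 (0.86, 0.019), Kcnk3 (-0.62, 0.016) and Nup210 (-0.32, 0.028) passed in the same direction. Elovl7 (0.27, 0.67), Lgals1 (0.23, 0.082), Cacna1a (-0.05, 0.84), Aldh5a1 (-0.23, 0.055) and Klhl18 (-0.33, 0.26) did not pass.

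**Figure D2:**
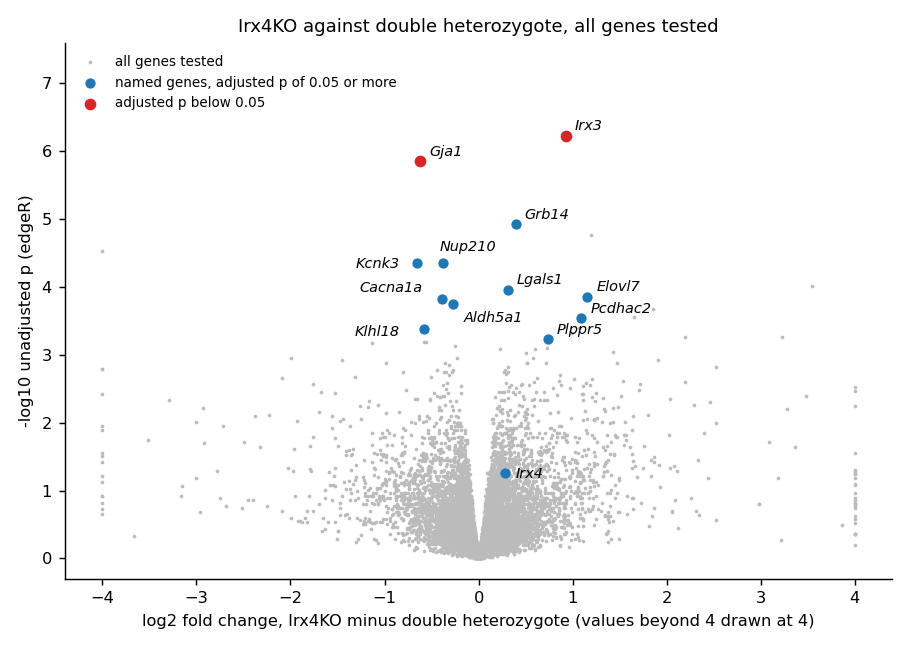
Log2 fold change of Irx4KO minus double heterozygote (x) against -log10 of the unadjusted edgeR p (y) for all 16607 genes tested. The red points, Irx3 and Gja1, passed at an adjusted p of 0.05, and the blue points are the other genes of the naming rule together with Irx4.

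The second comparison offers a wider view. Between double knockout and Irx3KO, where both groups lack Irx3 and the labels differ in Irx4 alone, 63 genes passed (0.379% of those tested), 27 higher and 36 lower. By label that comparison removes both intact copies of Irx4. Irx4KO against double heterozygote removes only the second copy and restores a copy of Irx3, so sizes in the 2 comparisons belong to unlike changes. Irx4 itself is among the 63. Its chromosome 13, which holds 600 of the 16607 genes tested, also carries Amph, Nrn1, Thbs4, Elovl7, Cap2, Mrps27, Adgrv1, Zfp729a and Mef2c of the 63. Whether differences linked to the mutant Irx4 allele recur in both comparisons was not tested. In Irx4KO against double heterozygote 61 of the 63 had the same direction (96.8%), 26 of 27 and 35 of 36. Over all genes tested 10027 of 16607 (60.4%) did. The median log2 fold change was 0.34 in the 27 genes, against 0.67 in the comparison that chose them, and -0.33 in the 36 genes, against -0.76. An unadjusted p below 0.05 in the same direction was reached by 46 of the 63 (73%), against 4.26% of all genes, and by none in the opposite direction. For 50 (79.4%) the 3 and 3 libraries did not overlap in that direction, against 10.3% of all genes. Gja1 was the 1 gene of the 63 that passed in both. The count of 61 was 61 to 63 in all 18 alternatives, and 62 without double heterozygote 2.

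For 62 of the 63 genes the log2 fold change was smaller in size than between double knockout and Irx3KO, whose values chose the genes. The 2 comparisons also remove unlike numbers of intact Irx4 copies, as given above. The median ratio over 62 genes was 0.5, with Atp2b3 left out because it had no count in Irx4KO. The double heterozygote mean lay between those of Irx3KO and Irx4KO for 52 of the 63. The Irx3KO libraries had helped to choose these genes, which favours this order, and its share over all genes was not counted. The difference between the 2 comparisons, tested gene by gene by edgeR over all genes, passed for 0 genes (0%), while 474 genes (2.85%) had an unadjusted p below 0.05. No other tool was run for this difference. Even Irx3, a copy of which is restored only in Irx4KO against double heterozygote, did not pass this edgeR test (0.558 ± 0.179, unadjusted p = 0.0062). The 0 calls therefore do not show that the 2 comparisons are equal.

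**Figure D3:**
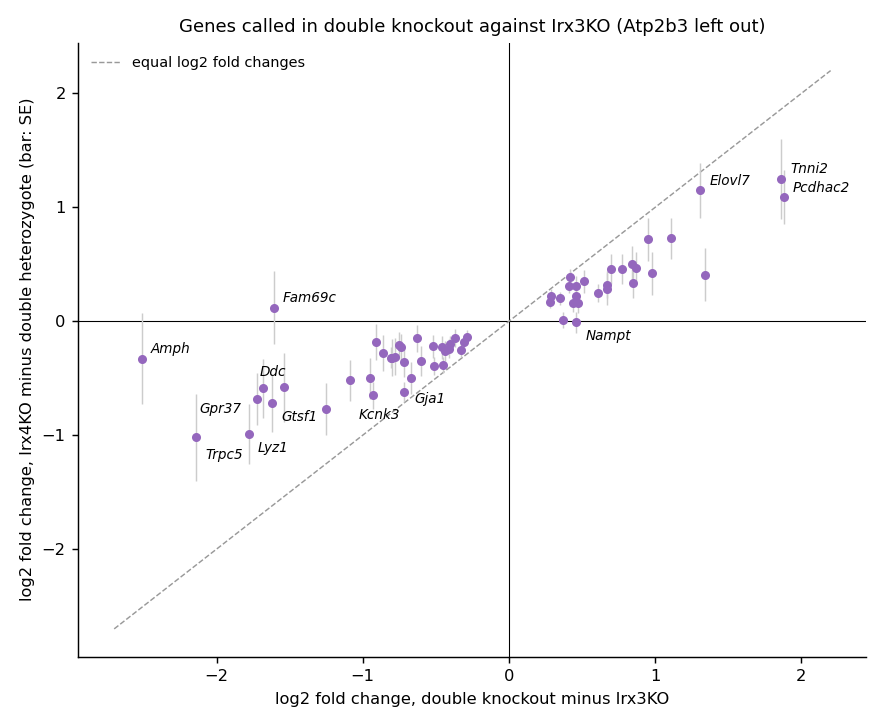
Log2 fold change of double knockout minus Irx3KO (x) against that of Irx4KO minus double heterozygote with its SE (y) for 62 of the 63 genes called in the first, without Atp2b3. All points except Fam69c and Nampt lie in the quadrants of equal sign, and those points lie between the horizontal line at 0 and the dashed line of equal changes.

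Several of the 63 genes act in signalling, conduction or contraction, and of those in this paragraph none passed in Irx4KO against double heterozygote. The secreted axon guidance ligand Slit2 was at 98.2, 85.0 and 103 CPM in the double heterozygotes and at 70.7, 65.5 and 65.5 CPM in Irx4KO, beside 120 CPM in Irx3KO and 62.0 CPM in the double knockout (-0.50, adjusted p = 0.75). Ddc, the decarboxylase that makes dopamine and serotonin, was at 68.6 ± 8.30 CPM and 45.4 ± 8.17 CPM, beside 142 CPM in Irx3KO and 44.1 CPM in the double knockout. The pseudokinase Trib2 was at 101 ± 2.52 CPM and 81.2 ± 3.79 CPM, beside 120 and 68.3 CPM (-0.32, adjusted p = 0.57). Slit2, Ddc and Trib2 thus stood highest in Irx3KO, lower in the double heterozygotes and lower again in both genotypes labelled as Irx4 knockouts. They were chosen by the difference between double knockout and Irx3KO, which favours this order. Phospholamban, Pln, which restrains the calcium pump of the sarcoplasmic reticulum, was at 1840 ± 113 CPM and 1600 ± 50.9 CPM (-0.20, adjusted p = 0.70). The transcription factor Mef2c was at 151 ± 4.66 CPM and 128 ± 4.12 CPM, and the junctional membrane protein Jph1 at 8.09 ± 0.451 CPM and 6.35 ± 0.34 CPM. Lyz1 was at 2.60 and 1.30 CPM and its near-identical copy Lyz2 at 15.5 and 10.4 CPM, and their counts may be split between them.

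Among genes higher in Irx4KO, the troponin of fast muscle Tnni2 was at 14.3, 13.6 and 14.1 CPM and at 29.7, 29.6 and 40.7 CPM (1.25 ± 0.35, adjusted p = 0.57, 0.013 to 1 over the alternatives), and it passed with only the 6 compared libraries, with or without the replicate block. Thbs4, a matrix glycoprotein, was at 71.9, 70.2 and 77.7 CPM and at 97.4, 100 and 104 CPM (0.46, adjusted p = 0.57), and it passed with only the 6 compared libraries, with the 12 of their set and with the replicate block. The sodium channel Scn10a was at 4.59, 4.86 and 4.92 CPM and at 8.65, 7.68 and 7.33 CPM (0.72, adjusted p = 0.54). In these 3 genes the groups did not overlap. Tbx2, a transcriptional repressor known from the atrioventricular canal, was at 16.7 ± 2.12 CPM and 21.1 ± 0.647 CPM, beside 19.1 CPM in Irx3KO and 34.5 CPM in the double knockout. The potassium channel Kcnh7 was at 11.0 ± 1.58 CPM and 15.3 ± 0.923 CPM, beside 12.1 and 22.2 CPM. Tbx2 and Kcnh7 were thus higher in the double knockout mean than in the Irx4KO mean, with log2 differences of 0.71 (adjusted p = 0.18) and 0.53 (adjusted p = 0.65) that did not pass. The 2 genes of opposite direction were Fam69c, a kinase-like protein (0.12), and Nampt, an enzyme of NAD synthesis (-0.01).

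WT and double knockout libraries of the other set gave another separate comparison, in which 239 genes passed (1.44%). Of these, 189 had the same direction in Irx4KO against double heterozygote (79.1%), against 54.2% of all genes. An unadjusted p below 0.05 was reached by 68 in the same direction (28.5%, against 3.43% of all genes) and by 10 in the opposite direction. The medians were 0.13 for the higher and -0.15 for the lower genes. Irx3 itself, which is lost in that comparison and gained in this one, is among the genes of opposite direction.

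The genes of 31 lists of heart cell types and pathways were read next, and apart from Irx3 and Gja1 none of their members passed. In bulk tissue, fewer cells of a type and less RNA per cell cannot be told apart. Of 18 trabecular and conduction markers 14 were above 0 and 4 below, with a median log2 fold change of 0.09. Irx3 was the 1 that passed, and since the labels set its copies, its rise does not bear on these tissues. The 4 below 0 were Kcnk3 (-0.65), Slit2 (-0.50), Bmp10 and Sema3a. The trabecular signal Bmp10 was at 35.0, 31.2 and 42.8 CPM and at 26.5, 23.3 and 26.8 CPM (-0.51, adjusted p = 0.89), and the guidance ligand Sema3a at -0.47. The natriuretic peptide Nppa was at 602, 823 and 1070 CPM and at 780, 854 and 885 CPM, which overlap. Of 14 atrial markers 10 were above 0 (median 0.12). The atrial light chain Myl7 was at 273, 262 and 315 CPM and at 350, 388 and 390 CPM (0.41, adjusted p = 0.78), and Stard10, which carries lipids between membranes, was at 0.53 (adjusted p = 0.70). Of 12 ventricular and compact wall markers 6 were above and 6 below 0 (median -0.02), with Pln and the repressor Hey2 (-0.22, adjusted p = 0.70) among the lower.

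Genes of cell contacts, excitation and calcium handling were found on both sides of 0. In the gap junction and intercalated disc list 1 of 13 fell, Gja1, and the other 12 lay between -0.15 and 0.14, with the list median at -0.05. Its desmosome members included desmoplakin Dsp (-0.08, 95% interval -0.24 to 0.07) and plakophilin Pkp2 (-0.07, 95% interval -0.19 to 0.04), and the adhesion protein N-cadherin, Cdh2, was at 0.03 (95% interval -0.10 to 0.15). Of 22 potassium and sodium channels 15 were above 0 (median 0.07). Scn10a, given above, had the smallest p of them. The transient outward channels Kcna4 and Kcnd3 were at 0.34 and -0.53. The sodium channel subunit Scn4b (1.37 and 0.728 CPM, -0.90, adjusted p = 0.74) and the potassium channel subunit Kcnv2 (0.184 and 0.398 CPM, 1.12, adjusted p = 0.81) had the differences of largest size in the list, at low levels. Of 21 calcium handling genes 11 were above 0 (median 0.01). Casq1, the calcium-binding calsequestrin of skeletal muscle, was at 0.812 and 1.52 CPM (0.87 ± 0.58, adjusted p = 1), the calcium pump Atp2a2 at -0.04 and the release channel Ryr2 at -0.14.

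Transcription factors and signals were centred near 0. Of 23 cardiac transcription factors 16 were above 0 (median 0.06), with Nkx2-5 at 0.04 (95% interval -0.17 to 0.26), Tbx5 at 0.00 (95% interval -0.17 to 0.17) and Gata6 at 0.15. Of 24 BMP, neuregulin and FGF genes 15 were above 0 (median 0.09), among them the BMP targets Id3 (0.27, adjusted p = 0.57) and Id1 (0.23) and the ligand Bmp2 (0.33), while the ligand Bmp7 was at -0.24. Of 19 Notch pathway genes 11 were above 0 (median 0.05), with the ligands Jag1 at 0.30 and Jag2 at 0.25. Of 27 Wnt pathway genes 17 were above 0 (median 0.03), and the secreted inhibitor Sfrp1 was at 287, 264 and 252 CPM and at 305, 301 and 316 CPM (0.20, adjusted p = 0.64).

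Contractile genes were centred near 0. Of 30 sarcomere genes 20 were above 0 (median 0.05), and the chamber myosins Myh7 (-0.15), Myh6 (0.04) and Myl2 (0.02) did not pass. The M-band protein Myom2 was at 31.5, 35.4 and 29.7 CPM and at 63.0, 86.7 and 76.4 CPM (1.22 ± 0.45, adjusted p = 0.75, 0.0078 to 1 over the alternatives). The skeletal actin Acta1 was at 87.3, 135 and 92.4 CPM and at 202, 168 and 169 CPM (0.78, adjusted p = 0.84). Both genes were higher in all 3 Irx4KO libraries, while in double knockout replicates 2, 3 and 4 Myom2 was at 64.7 ± 29.2 CPM and Acta1 at 227, 81.9 and 113 CPM, 1 of which lies below all double heterozygotes. Of 8 skeletal muscle markers 7 were above 0 (median 0.29), summing to 280 to 392 CPM in the double heterozygotes and 376 to 470 CPM in Irx4KO, with Myod1 as given above. These sums overlap, and most of them is Ckm, at means of 301 and 375 CPM (0.32 ± 0.32), which did not pass. Of 11 cardiac stress genes 8 were above 0 (median 0.08), with the adaptor Fhl2 at 0.39 (adjusted p = 0.57).

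Markers of cells other than muscle were read as lists too. Of 20 epicardial, cushion and fibroblast markers 19 were above 0, with a median of 0.21 and sums of 5680 to 6820 CPM in the double heterozygotes and 6760 to 7810 CPM in Irx4KO. Periostin, Postn, was at 726, 651 and 786 CPM and at 878, 909 and 870 CPM (0.30, adjusted p = 0.66), and the collagen Col1a2 at 1070, 937 and 886 CPM and at 1220, 1330 and 1040 CPM (0.32). The sums of the 2 groups overlap, and the list median lay between 0.13 without double heterozygote 3 and 0.31 without double heterozygote 2. Of 14 erythroid markers 12 were above 0 (median 0.20), but the median was -0.13 without Irx4KO 3, and the sums ran from 4590 to 9220 CPM within Irx4KO. The globin Hba-a2, with the smallest p of them, was at 245, 259 and 243 CPM and at 246, 519 and 379 CPM. The more abundant globin Hba-a1 was at means of 2260 and 2740 CPM (0.28 ± 0.32), and how counts were split between these 2 genes was not tested. Of 22 endothelial markers 10 were above 0 (median -0.02), and the clotting factor Vwf was at 15.9, 16.1 and 20.3 CPM against 7.07, 7.65 and 7.79 CPM (-1.21 ± 0.52, adjusted p = 0.86, 0.0091 to 1 over the alternatives). Vwf was at 17.3 ± 17.2 CPM in Irx3KO, and its log2 fold change was -0.73 with counts rebuilt from TPM. The part of cell makeup in Gja1 and Irx3 was not tested.

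The other lists can be given by their counts above 0. These were 8 of 11 smooth muscle and pericyte markers (median 0.15), 10 of 16 macrophage markers (0.07), 10 of 16 neural markers (0.15), 3 of 5 liver and gut markers (0.13) and 1 of 2 lung markers (0.07). The smooth muscle myosin Myh11 had no count in the 3 double heterozygotes and was at 2.44, 0.754 and 1.37 CPM in Irx4KO (adjusted p = 0.57). It was at 0, 0.622 and 1.62 CPM in Irx3KO and 0.347, 0 and 0.429 CPM in WT, so its low counts came and went within a genotype. The counts above 0 were 16 of 26 matrix genes (median 0.03), 13 of 20 immediate early and stress genes (0.03), 4 of 12 interferon genes (-0.10) and 4 of 9 sex-linked genes (-0.11). The members of smallest p in these lists did not pass: the neuronal Stmn2 at 1.73 and 3.13 CPM, the keratin Krt8 at 5.03 and 5.89, the morphogen Shh at 0.260 and 0.345, the laminin Lama4 at 549 and 496, the immediate early gene Fos at 2.09 and 2.74, Isg15 at 0.825 and 1.24 and the X-linked Eif2s3x at 339 and 298, as mean CPM in double heterozygote and Irx4KO. Among lists of growth and metabolism, 7 of 26 cell cycle genes were above 0 (median -0.03), 11 of 28 genes of fatty acid oxidation and respiration (-0.03) and 3 of 24 genes of glycolysis and hypoxia (-0.07). The glycolytic enzyme Tpi1, the member of smallest p, lay on the other side, at 13.5, 11.2 and 16.6 CPM and at 33.2, 32.5 and 15.4 CPM (0.98, adjusted p = 0.69), an overlap, and at 0.33 with counts rebuilt from TPM. The coactivator of mitochondrial genes Ppargc1a was at 160, 156 and 146 CPM and at 132, 129 and 140 CPM (-0.21, adjusted p = 0.84), and the replication helicase Mcm2 at 138, 156 and 146 CPM and at 131, 128 and 134 CPM (-0.17, adjusted p = 0.89).

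**Figure D4:**
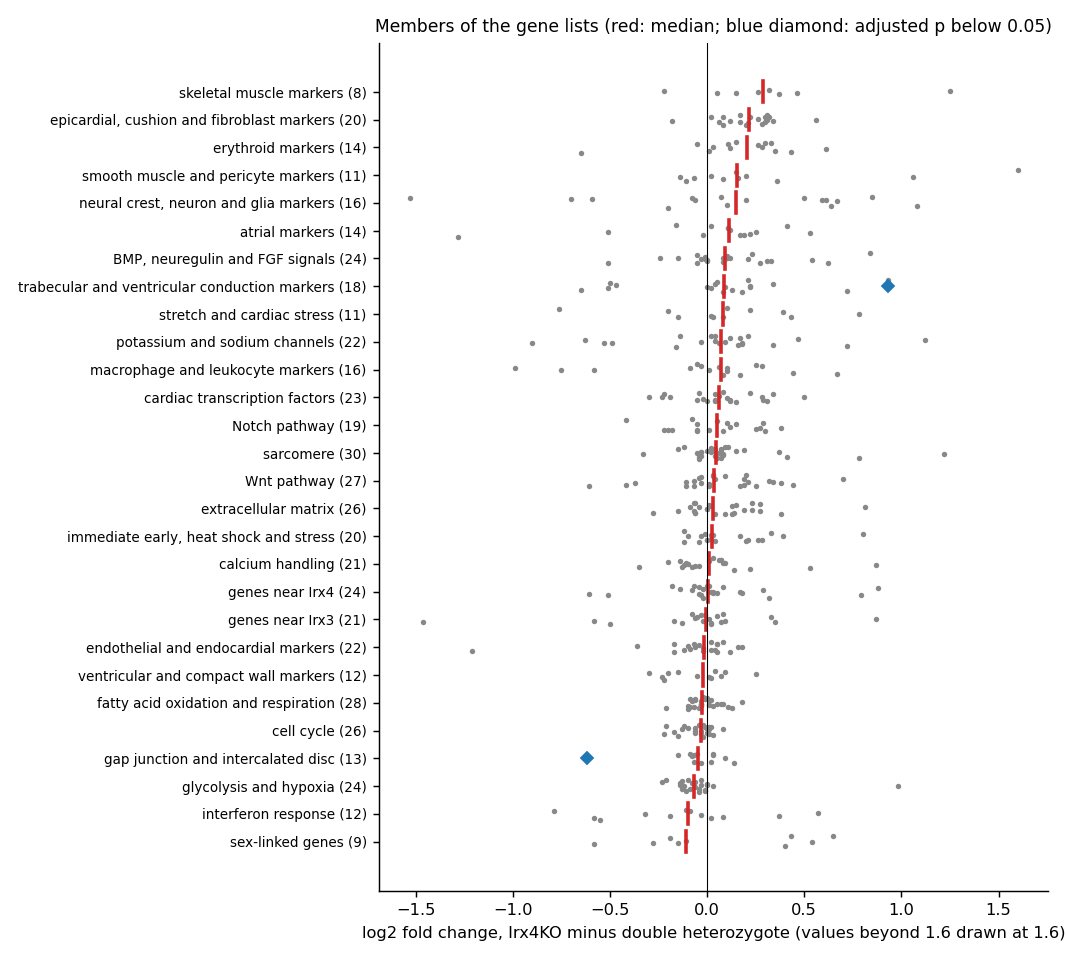
Log2 fold change of Irx4KO minus double heterozygote for each tested member (grey points) of the lists with at least 8 tested members (number in brackets), with list medians as red bars. Blue diamonds mark Irx3 and Gja1, the 2 members that passed, and all medians lie between -0.11 and 0.29.

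Genes close to the targeted loci were looked at because a mutant chromosome carries its neighbours with it. On chromosome 8, where Irx3 lies, the metal-binding protein Mt3 was at 3.88, 3.50 and 1.88 CPM in the double heterozygotes and at 0.780, 0.726 and 1.92 CPM in Irx4KO (-1.46, adjusted p = 0.54), an overlap. The ciliary gene Bbs2 was at 15.2, 10.7 and 11.2 CPM and at 7.77, 7.70 and 9.39 CPM (-0.58, adjusted p = 0.47). The adhesion receptor Adgre5, on the same chromosome but not among the 50 tested genes on either side of Irx3, was at 67.1, 59.5 and 62.2 CPM and at 72.8, 74.6 and 74.4 CPM (0.23, adjusted p = 0.65). In Irx3KO and the double knockout Mt3 was at 4.23 and 5.81 CPM, Bbs2 at 15.4 and 15.6 CPM and Adgre5 at 53.6 and 53.4 CPM. Mt3 and Bbs2 were thus highest, and Adgre5 lowest, where both copies of Irx3 are mutant, and Irx4KO stood at the other end of the 4 genotypes. Irx3, Mt3 (2.35), Bbs2 (0.91) and Adgre5 (-0.47), all on chromosome 8, were the 4 genes that passed between double knockout and Irx4KO (0.0241%). That comparison reuses the Irx4KO libraries, and passing in it favours the order just given. In double knockout minus WT of the other set, Mt3 was at 2.62 and Bbs2 at 0.96 (both adjusted p = 0.0023). Adgre5 was at -0.085 there (adjusted p = 0.68).

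Of the 100 tested genes around Irx4 on chromosome 13, 11 (11.0%) had an unadjusted p below 0.05, 3 higher and 8 lower, against 5.61% of all genes and 53 of the 600 genes tested on the whole chromosome (8.83%). They include Irx2, Mef2c, the adenylate cyclase Adcy2 (0.88) and the zinc finger gene Zfp729a (-0.50). The share of chromosome 13 was above that of every other chromosome, but close to that of chromosome 6 (68 of 837, 8.12%), which holds neither Irx3 nor Irx4. Of the 100 around Irx3, 8 (8.0%) did, 1 higher and 7 lower, against 6.26% on the whole of chromosome 8. Of the lists of named neighbours, 12 of 24 genes near Irx4 (median 0.00) and 10 of 21 genes near Irx3 (median -0.01) were above 0. An effect of a mutant allele on its neighbours, and differences of strain carried along with it, cannot be told apart from the loss of the gene in these groups.

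How small a difference could be seen depended on level. The median standard error of a log2 fold change was 0.49 for genes below 1 CPM in the double heterozygotes, 0.25 from 1 to 5 CPM, 0.13 from 5 to 20 CPM, 0.09 from 20 to 100 CPM and 0.08 above 100 CPM. Gja1, at 496 ± 17.5 CPM, belongs to the most precise class, and Irx3, at 13.1 CPM, to a middle one.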

How the data were processed

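The authors deposited 1 table per library that lists estimated counts, TPM and lengths of each transcript, per the file headers. They used kallisto 0.42.2 and mm9, per the submitters' processing notes. Which transcript release and strand option was used is not given in the sources used here. The TPM values are the authors' own, deposited beside the estimated counts, and here served for levels per length and to rebuild counts in an alternative. Of 88943 transcripts, 78030 (87.73%) matched a gene of GENCODE M21 (GRCm38), and the others held 6.42% to 6.77% of counts. Because builds differ, chromosomes but no coordinates of the files are given, and promoter letters come from RefSeq (GRCm38.p6), where 9 of 13 genes had an entry.

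Estimated counts were summed per gene, rounded and tested with edgeR 4.0.16 (R 4.3.3): filterByExpr, TMM, robust quasi-likelihood F test over all 18 libraries with genotype and library set as terms, and Benjamini-Hochberg adjustment (common dispersion 0.0207, 12 residual degrees of freedom). SEs were taken as the absolute log2 fold change over the root of the F statistic. CPM use TMM factors. The smallest chi-square per gene between libraries of a group was 6.31, so none agreed within sampling noise. Named were Irx3, Irx4, the genes past the threshold made up to 6 per direction by smallest p (mean of at least 2 CPM, no overlap, descriptive symbol), and the list member of smallest p where none passed. Other genes were named after their values were seen. The comparison, the 31 lists (576 entries, 7 unmatched) and the tests were chosen with earlier results of these data known. Tracing the 63 genes of the second comparison, the promoter search and the chromosome counts were added after the files were read. Alternatives used RLE factors, DESeq2 1.42.0, limma-voom (limma 3.58.1), other filters, samples and covariates, a replicate block, and each compared library left out.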

Additional observations from a re-analysis of the deposited data

How the results depend on the processing

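Of the 40 named genes none changed direction under an alternative. Of their values 686 kept their side of the threshold, 23 passed newly and 10 no longer passed. The 2 calls (1 higher, 1 lower) became 22 by DESeq2 (11 and 11), 0 by limma-voom (0 and 0, with 808 unadjusted), 11 with only the 6 compared libraries (6 and 5), 12 with the 12 libraries of their set (6 and 6), 1 with genotype only (1 and 0) and 3 with no filter (2 and 1). They ranged from 0 to 6 with 1 library left out (0 to 4 higher, 0 to 2 lower). Without Irx4KO 3 or Irx4KO 4 the count was 0 (696 and 821 unadjusted), without Irx4KO 2 it was 1, without double heterozygote 3 it was 1 (0 shared with the 2), without double heterozygote 2 it was 6 and without double heterozygote 4 it was 3. Irx3 was called in 14 and Gja1 in 12 of 18 alternatives. The cause of these shifts was not tested. The 63 genes between double knockout and Irx3KO became 201 by DESeq2, 179 with the 12 libraries, 284 with genotype only and 38 with a sex covariate. Double heterozygote 4, with 26721576 estimated counts, was the shallowest library.

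With the replicate number as a block, over the 6 libraries, 9 genes passed (6 higher, 3 lower): Irx3, Gja1, Elovl7, Thbs4, Tnni2, Myom2, Vwf, Lrrk1 and Rplp0. All but Elovl7 also passed with the 6 libraries and no block. Same-numbered libraries correlated at 0.118, 0.212 and -0.091 in their deviations from the group means, and double heterozygote 4 correlated best with Irx4KO 2 (0.092), so the numbers were not taken to pair the libraries.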
